A study of Mus musculus with 2 samples.

Results

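The MS4A genes encode small proteins that cross the membrane several times and sit at the surface or in the vesicles of blood cells. Nearly all of them lie side by side on 1 mouse chromosome, and different leukocytes use different members. Ms4a1 encodes CD20, the B cell antigen that therapeutic antibodies bind. Ms4a4b encodes a T cell protein that associates with the costimulatory receptor GITR, and Ms4a4a, Ms4a6d, Ms4a7 and Ms4a8a are known from monocytes and macrophages. The 9 genes described here (Ms4a1, Ms4a4a, Ms4a4b, Ms4a4c, Ms4a6b, Ms4a6c, Ms4a6d, Ms4a7 and Ms4a8a) were taken by symbol from the 33696 genes of 2 single-cell RNA libraries, and the question was how they divide between B, T, NK, monocyte and macrophage cells in each library.

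The mice carried floxed Bicd2, a gene for an adaptor of the dynein motor. The library called WT came from Alb-WT Bicd2fl/fl mice and the library called KO from Alb-Cre Bicd2fl/fl mice. The albumin-driven Cre is aimed at hepatocytes, and whether it acted in the immune cells sampled was not tested. Both groups of mice received 2.5 mg of S-100, a cleared liver homogenate in complete Freund's adjuvant, by intraperitoneal injection once a week for 3 weeks, as a model of autoimmune hepatitis (AIH). The protocol and the series text describe leukocytes taken from liver by Percoll gradient, red cell lysis and a sort of living cells. The sample titles instead call the cells peritoneal, and the tag for treatment reads HFD, so the submitters' own texts disagree on tissue and treatment. Neither the number nor the age of the mice is given in the sources used here, and the series text says that sorted cells were pooled.

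Each genotype is 1 library. No difference between WT and KO therefore has a replicate check, no p-value is given, and every interval is a 95% interval that covers counting error only. The 9 members together held 88506 UMIs (unique molecule counts) in the 20167 WT barcodes and 53367 UMIs in the 17675 KO barcodes with at least 200 genes and at most 20% mitochondrial UMIs. After removal of doublets, 17080 WT cells remained at a median depth of 2793 UMIs, and 15619 KO cells at 2003. Haemoglobin took 15.4% of all WT UMIs and 38.7% of all KO UMIs, and 177 barcode sequences occurred in both libraries. Classes were rebuilt by clustering without the MS4A genes and named from marker genes: 657 WT and 1358 KO B-like cells, 5181 and 4339 T-like, 1656 and 1305 NK-ILC1-like, 1251 and 748 classical monocyte-like, 307 and 731 nonclassical monocyte-like, and 117 and 262 macrophage-like cells. Clusters that met no class, most of them with over 10% haemoglobin, held 4.31% of WT and 21.4% of KO cells. The deleted gene is a poor check of the labels here, since immune cells are not the intended target and the deleted exons are not given. Bicd2 lay between 16.3 and 31.5 CPM (UMIs per 1000000 UMIs of a class) over the 6 WT classes and between 10.4 and 17.3 CPM over the 6 KO classes. Its KO over WT ratio was 0.685 (0.569 to 0.822) in T-like and 0.549 (0.395 to 0.749) in NK-ILC1-like cells. In classical monocyte-like cells it was 0.592 (0.408 to 0.844) and in macrophage-like cells 0.339 (0.159 to 0.713). For B-like (0.902) and nonclassical monocyte-like cells (0.944) the interval held equality. The cause of these ratios was not tested.

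A pair of neighbouring genes can be close copies and still be read in different cells, and the sequences just before their start sites show how close. RefSeq tables of the GRCm38.p6 build held a promoter for 7 of the 9 members, and the 250 bases upstream of each start were compared. Of all pairs of different members, Ms4a4b with Ms4a4c and Ms4a6b with Ms4a6c had the longest alignments. Each of these blocks is shown from 5′ to 3′ because the members of the first pair had their highest levels in different classes. Ms4a4b was highest in T-like cells and Ms4a4c in classical monocyte-like cells, though B-like cells also read Ms4a4c. The members of the second pair overlap in monocyte-like cells. Capitals mark bases that differ from the partner or have no counterpart in it.
Ms4a4b, upstream window chr19:11443308-11443557 on the plus strand, block starting 131 bases before the start site: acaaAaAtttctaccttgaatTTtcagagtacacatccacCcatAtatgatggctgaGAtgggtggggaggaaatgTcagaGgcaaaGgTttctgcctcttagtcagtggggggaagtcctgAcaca
Ms4a4c, upstream window chr19:11407411-11407660 on the plus strand, block starting 128 bases before the start site: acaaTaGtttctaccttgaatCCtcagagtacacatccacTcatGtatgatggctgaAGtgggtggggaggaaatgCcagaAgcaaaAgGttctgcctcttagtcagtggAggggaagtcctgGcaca
Ms4a6b, upstream window chr19:11518309-11518558 on the plus strand, block starting 248 bases before the start site: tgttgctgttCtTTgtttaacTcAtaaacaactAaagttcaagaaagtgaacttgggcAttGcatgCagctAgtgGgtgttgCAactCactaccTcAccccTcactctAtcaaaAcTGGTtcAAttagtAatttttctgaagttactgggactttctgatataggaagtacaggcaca
Ms4a6c, upstream window chr19:11469118-11469367 on the plus strand, block starting 175 bases before the start site: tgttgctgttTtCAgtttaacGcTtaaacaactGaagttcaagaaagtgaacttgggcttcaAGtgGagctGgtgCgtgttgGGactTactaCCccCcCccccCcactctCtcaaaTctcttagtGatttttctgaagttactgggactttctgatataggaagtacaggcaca
The Ms4a4b and Ms4a4c blocks aligned over 128 positions with 89.1% identity. The Ms4a6b and Ms4a6c blocks aligned over 182 positions with 83.5% identity and shared an unbroken run of 48 bases at their 3′ ends. Searched on both strands, GAAANNGAA, the core of the interferon-stimulated response element, occurred in Ms4a6b (206 bases upstream) and Ms4a6c (133 bases upstream) inside these blocks, and before both starts listed for Ms4a7. It occurred in 7.13% of 32851 promoters of the same length. Neither TTCNNNGAA, the STAT site (7.02% of promoters), nor GAGGAAGT, the PU.1 site (2.44%), occurred in a member's window. These matches are letters in a window and were not tied to binding of any factor.

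The coding sequences of the same pairs are also alike: 91.7% identity for Ms4a4b and Ms4a4c, 86.4% for Ms4a6b and Ms4a6c, 81.8% for Ms4a6b and Ms4a6d and 79.6% for Ms4a6c and Ms4a6d. Reads in this assay come from the 3′ ends. Of the 60-base windows in the last 500 bases of the transcript, 7.48% of those of Ms4a4c occur in Ms4a4b and 8.39% of those of Ms4a6c occur in Ms4a6b, while 0% of those of Ms4a6d occur in Ms4a6b or Ms4a6c. UMIs from the shared windows cannot be assigned to 1 copy with certainty. RefSeq orders 21 Ms4a genes along chromosome 19, from Ms4a10 to Ms4a3, with 1 other protein-coding gene between them.

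Ms4a1 was read in B-like cells and Ms4a4b in T-like and NK-ILC1-like cells of both libraries, while Ms4a6b was read in T-like cells and in all 3 myeloid classes. Ms4a4a, Ms4a4c, Ms4a6c, Ms4a6d, Ms4a7 and Ms4a8a each had their highest level in a monocyte-like or macrophage-like class. The class with the highest level was the same in WT and KO for 7 of the 9. Among these 7, Ms4a4a in KO led narrowly, at 119 CPM in nonclassical against 113 in classical monocyte-like cells. Ms4a6b was highest in classical monocyte-like cells in WT (556 CPM) and in T-like cells in KO (443 CPM). Ms4a6d was highest in macrophage-like cells in WT (268 CPM, against 260 in classical monocyte-like cells, with overlapping intervals) and in classical monocyte-like cells in KO (133 CPM, against 115).

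**Figure D1:**
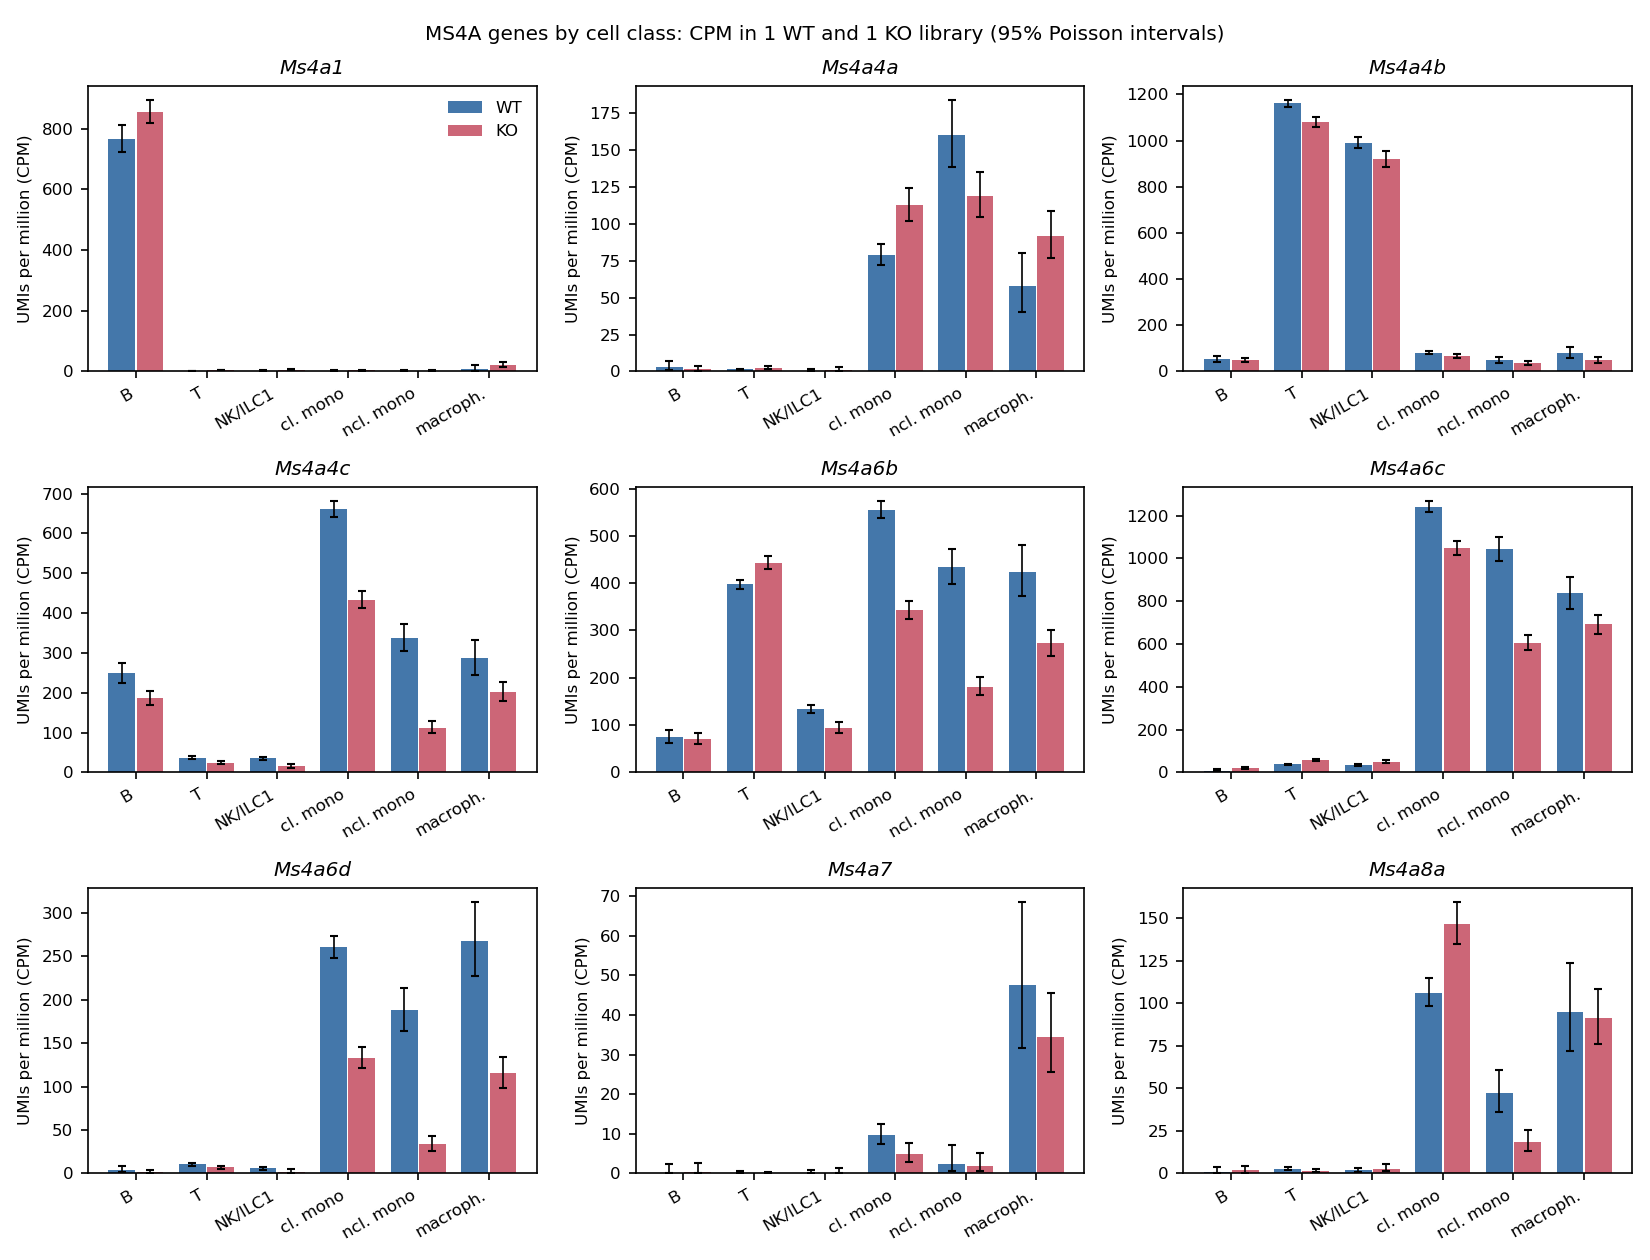
Levels of the 9 MS4A genes in 6 cell classes. Each panel is 1 gene, the vertical axis gives the CPM of a class, blue bars are the WT library and red bars the KO library, and error bars are 95% Poisson intervals of the counts. Ms4a1 stands in B-like cells, at 767 CPM in WT and 857 in KO, Ms4a4b stands above 900 CPM in T-like and NK-ILC1-like cells of both libraries, and the Ms4a6d bars of KO are below those of WT in all 3 myeloid classes.

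Summed over the 9 members, the family was most abundant in classical monocyte-like cells, at 2997 CPM in WT (2954 to 3041) and 2294 CPM in KO (2246 to 2344). In nonclassical monocyte-like cells the sum came to 2260 CPM (WT) and 1112 CPM (KO), and in macrophage-like cells 2103 and 1569 CPM. T-like cells held 1649 and 1618 CPM, NK-ILC1-like cells 1204 and 1093, and B-like cells 1160 and 1185. The sums of B-like and T-like cells thus differed little between the libraries, while all 3 myeloid sums were lower in KO. Neutrophil-like cells (84.6 and 108 CPM) and erythroid-like cells (54.5 and 43.8 CPM) held the least.

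Ms4a1 had 1152 UMIs in WT and 1901 UMIs in KO B-like cells, or 767 CPM (724 to 813) and 857 CPM (818 to 896). The KO over WT ratio was 1.12 (1.04 to 1.20), a difference beyond counting error and far below 2-fold. After every cell was thinned to 1000 UMIs, 46.2% of WT (42.0 to 50.5) and 52.6% of KO B-like cells (49.5 to 55.7) had a Ms4a1 UMI, against 65.5% and 61.5% before thinning. In T-like cells, taken as the background, the thinned shares were 0.179% and 0.366%, with median depths of 2640 and 1846 UMIs against 2070 and 1476 in B-like cells.

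A further B cell population stayed outside the B-like class. Cluster 27 carried 11 of 13 B markers and was led by Jchain, Igha and light-chain genes, so it held markers of plasma cells as well. There Ms4a1 stood at 474 CPM in 118 WT cells and 817 CPM in 238 KO cells, a ratio of 1.72 (1.51 to 1.97). In the same cluster the B markers summed to 33947 CPM in WT and 25874 in KO. The 8 plasma cell markers summed to 24116 CPM in WT and 4334 in KO there, with 5 at least 2-fold lower and 0 at 0, and their part in the Ms4a1 ratio was not tested. Cluster 16 carried all 13 B markers at a median of 49.8% haemoglobin, and its 520 KO cells held 16.1% of all KO Ms4a1 UMIs. Together the B-like class held 69.2% of WT and 52.8% of KO Ms4a1 UMIs, and cluster 27 held 18.8% and 24.9%.

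A list of genes whose products stand beside CD20 on B cells was read in the same class. Of the 12 listed partners all 12 passed the minimum of 20 summed UMIs in B-like cells, and 0 were 2-fold lower and 0 were 2-fold higher in KO, where 3.24% of all genes were lower and 1.97% higher. A count of 0 in 12 is near that background. Their median log2 ratio was -0.09, against -0.04 over all 9596 genes tested in these cells. Cd79a, a signalling chain of the B cell receptor, stood at 1376 CPM in WT and 1423 in KO. Cd24a, a surface glycoprotein, was 1.76 times as high in KO (1.45 to 2.15), and Fcmr, the IgM Fc receptor, was 1.54 times lower (ratio 0.648, 0.583 to 0.721). Cd24a was also at least 2-fold higher in KO in the NK-ILC1-like, both monocyte-like and the macrophage-like classes. Erythroid markers in B-like cells summed to 11183 CPM in WT and 40418 in KO, with 8 of 8 at least 2-fold higher. Their part in the Cd24a ratio was not tested. B markers of the class itself summed to 18524 and 18351 CPM.

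Ms4a4c was the second member of B-like cells, at 249 CPM in WT (225 to 276) and 186 in KO (168 to 204), a ratio of 0.745 (0.646 to 0.859). It shared cells with Ms4a1: 9.27% of thinned WT and 8.37% of thinned KO B-like cells held a UMI of both. In cluster 27, where plasma cell markers were lower in KO as given above, Ms4a4c stood at 69.9 CPM in WT and 23.7 in KO. Ms4a6b reached 75.3 and 71.2 CPM in B-like cells and Ms4a4b 52.6 and 47.8, and both intervals held equality.

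Over all genes of B-like cells, 3.24% were at least 2-fold lower and 1.97% at least 2-fold higher in KO. Of the 5 members with 20 or more summed UMIs there, 0 were lower and 1 was higher. The 1 higher member was Ms4a6c, which rests on 12 WT and 43 KO UMIs (7.99 and 19.4 CPM, ratio 2.42, 1.26 to 5.05). Estimated free RNA, of the kind that droplets carry from broken cells, exceeded the WT count of Ms4a6c in these cells, and its subtraction left 0 WT and 23.0 KO UMIs. Ms4a4a, Ms4a6d, Ms4a7 and Ms4a8a had too few UMIs in B-like cells.

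T-like cells read Ms4a4b most. The gene held 20903 WT and 10228 KO UMIs there, 1161 CPM (1146 to 1177) and 1079 CPM (1058 to 1100). The ratio was 0.929 (0.907 to 0.951). In NK-ILC1-like cells it stood at 989 CPM in WT against 920 in KO, and the log2 ratio of -0.10 became 0.089 under TMM scaling and 0.10 under DESeq2 scaling. The direction in NK-ILC1-like cells therefore depends on the scaling, where the median over all genes was itself -0.21. T-like cells held 66.7% of WT and 54.0% of KO Ms4a4b UMIs and NK-ILC1-like cells 21.8% and 14.1%. Unnamed clusters held 5.86% and 26.8%.

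After thinning, 65.5% of WT and 62.2% of KO T-like cells had a Ms4a4b UMI, and 56.4% and 55.7% of NK-ILC1-like cells did, with overlapping intervals in the latter. The same shares were 4.18% and 4.63% in B-like cells, 3.19% and 4.14% in neutrophil-like cells and 2.40% and 2.84% in erythroid-like cells. They were 8.23% and 6.94% in classical monocyte-like cells and 11.6% (6.33 to 19.03) and 4.31% (2.17 to 7.59) in macrophage-like cells. Levels in the B-like, monocyte-like and macrophage-like classes ran from 36.2 to 80.5 CPM, against 20.9 and 21.9 CPM in erythroid-like cells.

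Ms4a6b accompanied Ms4a4b in T-like cells and not in NK-ILC1-like cells to the same degree. It stood at 398 CPM (388 to 407) in WT and 443 CPM (430 to 457) in KO T-like cells, a ratio of 1.12 (1.07 to 1.16). In NK-ILC1-like cells it stood at 135 and 94.4 CPM, a ratio of 0.702 (0.611 to 0.804). Thinned T-like cells held a UMI of both genes in 22.9% of WT and 22.2% of KO cells, and thinned NK-ILC1-like cells in 6.42% and 5.09%. T-like cells with no UMI of any member made up 23.1% of WT and 23.9% of KO.

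The T-like class was built from different clusters in the 2 libraries, which any class-wide ratio includes. Cluster 2, led by Cd4 and Il1rl1, held 57.6% of WT and 1.71% of KO T-like cells. Cluster 0, led by Il4 and Zbtb16, the factor of innate-like T cells, held 12.1% of WT and 72.7% of KO. Within single clusters Ms4a4b varied more than between the libraries as a whole. It was highest in cluster 12, which carried Lef1, Dapl1 and Ccr7, genes known from naive T cells, and stayed unnamed because Ccr7 is also a marker of migratory dendritic cells: 1715 CPM in WT and 1665 in KO. Ms4a6b stood at 741 and 790 CPM there, and the interval of the ratio held equality for both genes. In cluster 11, with Cd8b1 and Dapl1 among its leading genes, Ms4a4b stood at 1411 and 1527 CPM.

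**Figure D2:**
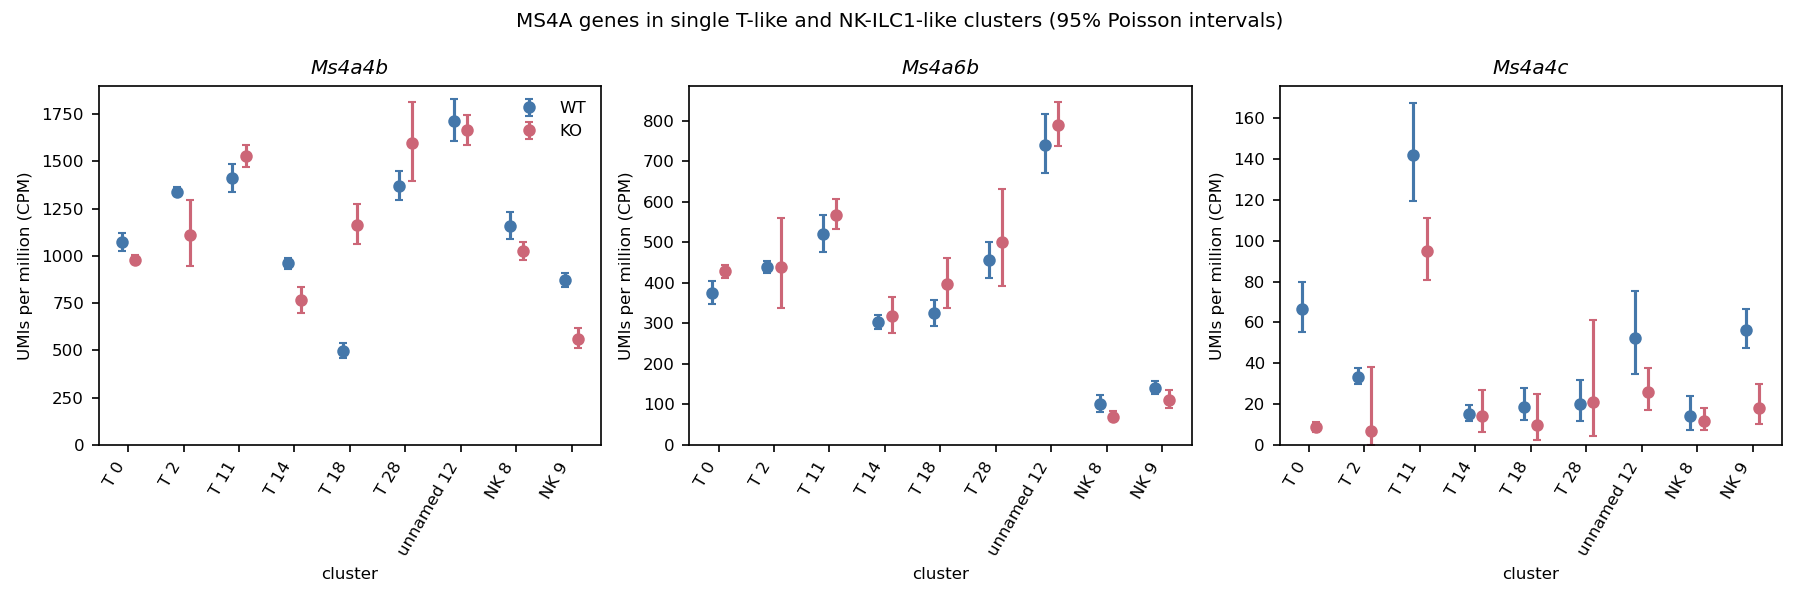
Ms4a4b, Ms4a6b and Ms4a4c in single T-like and NK-ILC1-like clusters that held 50 or more cells per library, and in the unnamed cluster 12. Points are CPM of the WT library (blue) and KO library (red) and bars are 95% Poisson intervals. Ms4a4b was 497 CPM in WT and 1164 in KO in cluster 18, and Ms4a4c was 66.8 CPM in WT and 8.57 in KO in cluster 0.

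The cluster with Foxp3, the factor of regulatory T cells, stood apart from the other T-like clusters. In this cluster 18, also led by Ikzf2, Ms4a4b had 635 UMIs in 366 WT cells and 476 UMIs in 164 KO cells, or 497 and 1164 CPM, a ratio of 2.34 (2.07 to 2.64). T-like cells with a Foxp3 UMI, whatever their cluster, gave 458 CPM in 190 WT cells and 999 CPM in 40 KO cells, a ratio of 2.18 (1.79 to 2.64). These cells overlap with the cluster, so the 2 ratios are not separate evidence. Ms4a6b in cluster 18 stood at 325 and 396 CPM, a ratio of 1.22 (1.0097 to 1.4644). Over the other 5 T-like clusters with at least 50 cells in each library the ratio of Ms4a4b ran from 0.798 in cluster 14, which carried the division genes Kif11 and Aspm, to 1.16 in cluster 28, which carried Cd8a, Gzmk and Gzmb. Whether Ms4a4b differs between the clusters in its ratio was not tested across samples.

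Gates on raw UMIs gave the same order of sizes. Cd4-positive T-like cells held Ms4a4b at 1181 CPM in WT and 1019 in KO, Cd8-positive cells at 1299 and 1423, Zbtb16-positive cells at 946 and 965, and Trdc-positive cells, of the gamma-delta lineage, at 1075 and 1127. Only the Foxp3 gate differed by 2-fold among the 5 gates.

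NK-ILC1-like clusters also differed. In cluster 8, with Prf1, Klra4 and Klra8 of mature NK cells, Ms4a4b stood at 1160 CPM in 279 WT cells and 1023 in 889 KO cells, a ratio of 0.882 (0.817 to 0.952). Cluster 9, with Gzmc, Xcl1 and Cd200r2 among its leading genes, held 870 and 563 CPM, a ratio of 0.647 (0.584 to 0.715). Cluster 9 held 42.8% of WT and 27.6% of KO cells of the class and cluster 8 held 16.8% and 68.1%. Cluster 22 held 27.1% and 2.22% and cluster 29 held 13.3% and 2.07%, so class-wide ratios compare unlike mixtures. Median haemoglobin in the class was 0.724% in WT and 2.97% in KO. Erythroid markers summed to 35419 CPM in WT and 196620 in KO of the class. The part of either difference in the class-wide ratios was not tested.

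Ms4a4c was low in lymphocytes other than B-like cells, and lower in KO over the T-like and NK-ILC1-like classes as wholes. In T-like cells it stood at 37.0 CPM in WT and 24.7 in KO, and in NK-ILC1-like cells at 34.8 and 16.3 CPM, a ratio of 0.467 (0.334 to 0.640). Under TMM or DESeq2 scaling the latter was under 2-fold (log2 -0.91 and -0.89). Cluster 0 held 119 Ms4a4c UMIs in 626 WT cells against 54 UMIs in 3155 KO cells, or 66.8 and 8.57 CPM, a ratio of 0.128 (0.0913 to 0.179). Zbtb16-positive T-like cells gave 63.3 and 9.67 CPM and Cd4-positive cells 30.3 and 9.06. Not all gates differed: the interval held equality in Cd8-positive cells (88.1 CPM in WT and 77.1 in KO). It also held equality in Trdc-positive cells (42.9 and 61.4 CPM, on 16 WT and 11 KO UMIs). The Foxp3 gate had too few Ms4a4c UMIs. Markers of classical monocytes, which read Ms4a4c most, also moved in cluster 0, where 3 of the 9 were at least 2-fold lower in KO and the 9 summed to 1386 CPM in WT and 705 in KO, with 0 markers at 0 in either library. Their part in the Ms4a4c difference was not tested. In cluster 11 Ms4a4c was higher than in the other 5 T-like clusters with at least 50 cells in each library, at 142 CPM in WT and 94.95 in KO.

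Among T-like cells, 11.1% of 13236 genes were at least 2-fold lower in KO and 6.49% at least 2-fold higher. Of 8 members tested, 0 were lower and 1 was higher. Among NK-ILC1-like cells 11.1% of 11400 genes were lower and 2.96% higher, and of 7 members tested 2 were lower (Ms4a4c and Ms4a6d) and 1 was higher. In NK-ILC1-like cells 4 of 9 classical monocyte markers were also at least 2-fold lower, with sums of 886 and 661 CPM and 0 at 0. The cDC2 markers summed to 1130 and 410 CPM there, with 2 of the 4 that passed the minimum lower and 2 of 7 at 0 in KO, and the part of either list was not tested. The higher member was Ms4a1 in the T-like and the NK-ILC1-like class, at 1.83 CPM in WT and 4.33 in KO T-like cells and at 2.17 and 5.88 in NK-ILC1-like cells. The 13 B markers moved with it: they summed to 132 CPM in WT and 258 in KO T-like cells, with 6 of 13 at least 2-fold higher and 0 at 0. In NK-ILC1-like cells they summed to 169 and 229 CPM, with 5 of the 11 that passed the minimum at least 2-fold higher and 1 lower. Their part in the Ms4a1 ratios was not tested. With estimated free RNA subtracted, the log2 ratio of Ms4a1 in T-like cells was 0.97, below the 2-fold line. In NK-ILC1-like cells it was 1.28, but only 8.16 WT and 8.31 KO UMIs remained, under the minimum of 20, so that call was lost too. Ms4a6d in NK-ILC1-like cells rests on 40 WT and 6 KO UMIs.

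**Figure D3:**
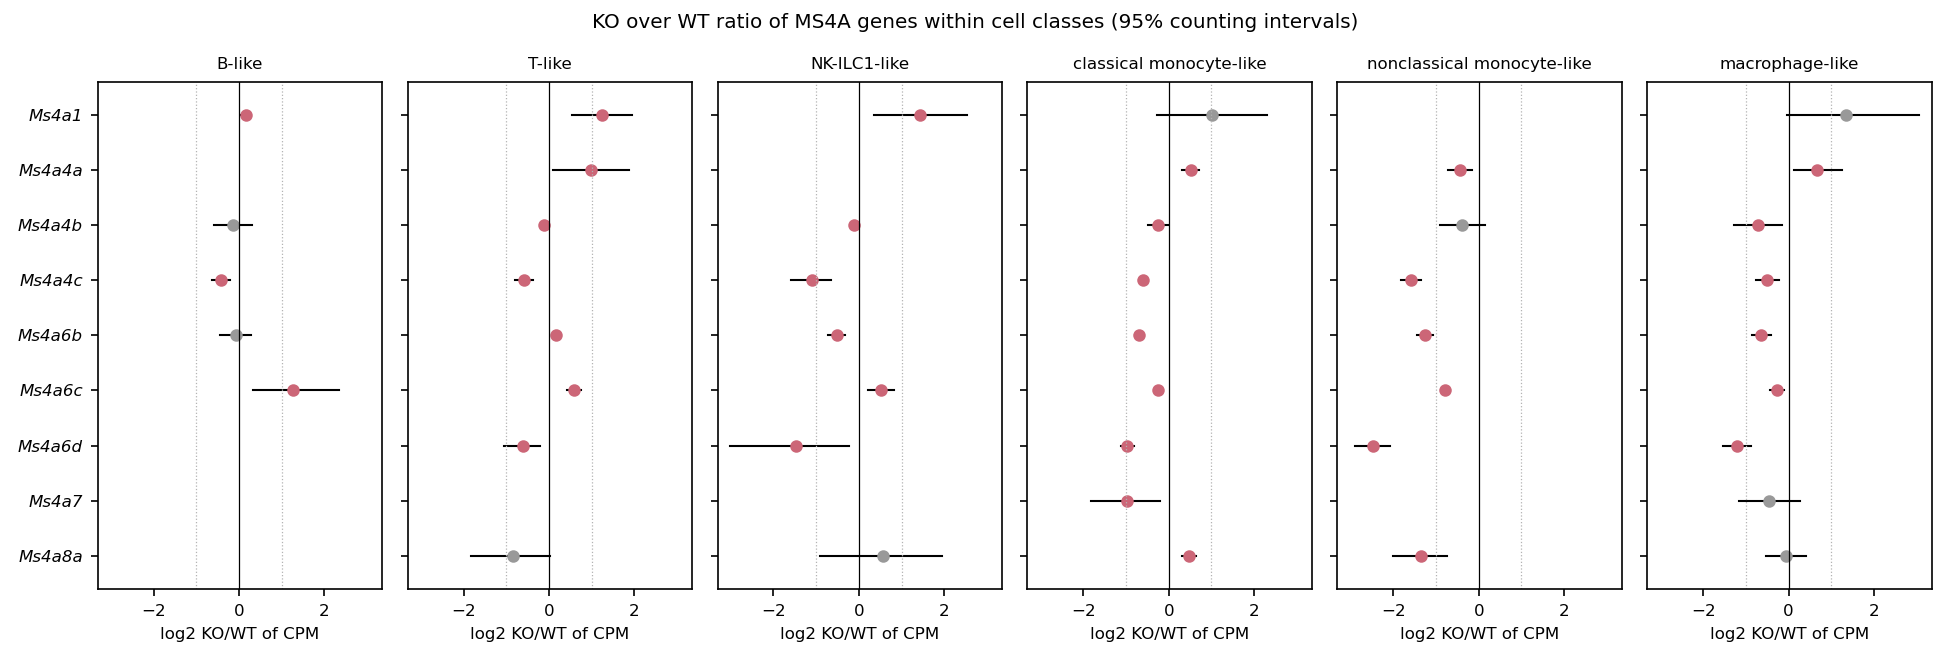
KO over WT ratios (log2 of CPM) of the members with at least 20 summed UMIs in each of the 6 classes. Points are ratios and bars are 95% counting intervals, red where the interval leaves out equality and grey where it holds it, and dotted lines mark 2-fold. In nonclassical monocyte-like cells Ms4a4c, Ms4a6b, Ms4a6d and Ms4a8a lie left of the 2-fold line, and Ms4a4b in NK-ILC1-like cells lies left of equality here but right of it under TMM or DESeq2 scaling.

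Monocytes arise in bone marrow as classical Ly6C-high cells, which enter inflamed tissue, and part of them mature into nonclassical cells that patrol vessels. Nonclassical monocyte-like cells showed the largest family-wide contrast of the 6 classes. Ms4a6d had 231 UMIs in 307 WT cells and 68 UMIs in 731 KO cells, 188 CPM (165 to 214) and 33.7 CPM (26.2 to 42.7), or 5.58-fold lower in KO (4.24 to 7.42). Ms4a4c stood at 338 CPM in WT and 113 in KO, 3.00-fold lower (2.55 to 3.54). Ms4a8a stood at 47.2 and 18.3 CPM, 2.57-fold lower (1.67 to 4.00), and Ms4a6b at 434 and 181 CPM, 2.39-fold lower (2.09 to 2.74).

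Ms4a6c, the most abundant member of these cells, stood at 1042 CPM in WT and 607 in KO, 1.72-fold lower (1.59 to 1.86). Ms4a4a, which reaches its highest level in nonclassical cells, stood at 160 and 119 CPM, a ratio of 0.742 (0.612 to 0.901). Its lead over classical monocyte-like cells was 2.02-fold in WT and 1.05-fold in KO. Of the 7 members tested in the class, 4 were at least 2-fold lower and 0 at least 2-fold higher. The background was 6.91% of 8889 genes lower and 3.68% higher. The median log2 ratio of the 7 members was -1.26, against -0.09 over all genes tested.

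The contrast was also seen at equal depth. After thinning to 1000 UMIs, 15.6% of WT (11.5 to 20.4) and 2.01% of KO (1.08 to 3.42) nonclassical monocyte-like cells had a Ms4a6d UMI. For Ms4a4c the shares were 26.3% and 9.75%, for Ms4a6b 34.8% and 13.6%, and for Ms4a6c 63.0% and 39.8%. Cells with no UMI of any of the 9 members made up 13.7% of thinned WT and 41.5% of thinned KO cells, and cells with 3 or more members 22.6% and 4.64%. Without thinning the Ms4a6d shares were 37.1% and 6.84%. In B-like cells, taken as the background, the thinned share was 0.182% in WT and 0.0985% in KO.

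Markers of classical monocytes moved in the same direction within this class. Of the 9, 4 were at least 2-fold lower in KO and 0 higher, and they summed to 6011 CPM in WT and 2601 in KO, with 0 at 0 in either library. Ly6c2, which marks classical cells, stood at 238 CPM in WT and 24.8 in KO, Ccr2 at 212 and 95.7, and Plac8 at 4340 and 1683. Markers of nonclassical cells summed to 3764 and 3867 CPM, with 0 of 10 at least 2-fold lower and 1, Fabp4 (73.2 and 169 CPM), higher. The part of the classical markers in the MS4A contrast was not tested. Erythroid markers summed to 65033 CPM in WT and 182984 in KO of the class, and with cells over 10% haemoglobin left out the log2 ratio of Ms4a6d was -2.37, that of Ms4a4c -1.40, that of Ms4a6b -1.14 and that of Ms4a8a -1.55.

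In classical monocyte-like cells Ms4a6c was again the most abundant member. It stood at 1242 CPM in WT (1214 to 1270) and 1049 in KO (1016 to 1083), and 62.4% and 61.6% of thinned cells held it. Ms4a4c stood at 662 CPM (642 to 683) and 434 CPM (413 to 456), a ratio of 0.655 (0.618 to 0.695). Ms4a6b stood at 556 and 342 CPM, a ratio of 0.616 (0.577 to 0.657). Ms4a6d stood at 260 and 133 CPM, 1.96-fold lower in KO (1.77 to 2.17), just short of 2-fold.

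Other members went the opposite way in the same cells. Ms4a4a, which has been described with dectin-1 on macrophages, stood at 79.2 CPM in WT and 113 in KO, a ratio of 1.42 (1.25 to 1.63). Ms4a8a, known from alternatively activated macrophages, stood at 106 and 147 CPM, a ratio of 1.38 (1.23 to 1.55). Ms4a7 had 60 WT and 18 KO UMIs, 9.66 and 4.91 CPM, lower in KO, but its log2 ratio was 1.08 after thinning. Only 4 of 1094 thinned WT and 5 of 648 thinned KO cells held a UMI of Ms4a7. Macrophage markers moved with it in these cells, from 894 CPM in WT to 482 in KO, with 6 of the 8 that passed the minimum at least 2-fold lower and 4 of 13 at 0 in KO (C1qa 29.3 and 4.64 CPM, C1qc 33.0 and 2.45). Their part was not tested. Of 9 members tested, 0 were at least 2-fold lower, against 8.18% of 11005 genes, and 1 was at least 2-fold higher, against 2.4%. The 1 higher member was Ms4a1, on 11 WT and 13 KO UMIs (1.77 and 3.55 CPM), with an interval that held equality. The B markers summed to 159 CPM in WT and 183 in KO there. Of the 11 that passed the minimum, 3 were at least 2-fold higher and 0 lower, and their part was not tested.

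The class joined 2 clusters that the libraries filled unequally. Cluster 6, with Vcan, Fn1 and F13a1, held 52.4% of WT and 92.8% of KO cells of the class, and cluster 15, with the interferon-induced chemokines Cxcl9 and Cxcl10 among its leading genes, held 47.6% and 7.22%. In cluster 6 Ms4a6d stood at 206 CPM in 656 WT cells and 121 in 694 KO cells, a ratio of 0.588 (0.520 to 0.666). In cluster 15 it stood at 322 CPM in 595 WT cells and 343 in 54 KO cells, a ratio of 1.07 (0.823 to 1.36). Ms4a4c likewise had a ratio of 0.622 (0.582 to 0.665) in cluster 6 and 1.03 (0.859 to 1.23) in cluster 15. Whether the ratios differ between the 2 clusters was not tested. The 9 classical monocyte markers summed to 17433 CPM in WT and 11760 in KO of cluster 6, with 1 at least 2-fold lower and 0 higher. In cluster 15 they summed to 11189 and 9149 CPM, with 0 lower and 0 higher. Their part in the MS4A ratios was not tested.

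Within WT alone the same clusters differed by gene. Ms4a8a stood at 143 CPM in cluster 6 and 64.5 in cluster 15, and Ms4a4a at 93.0 and 63.8, while Ms4a6d stood at 206 and 322. In KO, Ms4a8a stood at 152 CPM in cluster 6 and 49.8 in cluster 15. The KO over WT ratio of Ms4a8a was 1.06 (0.937 to 1.21) within cluster 6 and 0.771 (0.364 to 1.45) within cluster 15, and both intervals held equality, unlike that of the class. For Ms4a4a the ratio within cluster 6 was 1.23 (1.06 to 1.43).

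Macrophage-like cells, with C1qa, C1qb and Cd5l among the leading genes over both libraries together, were few: 117 in WT and 262 in KO. Their own markers differed between the libraries, as given below. Ms4a7 was the member with the clearest lead there, at 47.5 CPM in WT (31.6 to 68.6) and 34.5 in KO (25.6 to 45.5), against 9.66 and 4.91 in the next class. The 2 intervals overlapped, and the ratio of 0.727 (0.449 to 1.20) held equality. Ms4a6d, described as a partner of the complement receptor VSIG4, stood at 268 and 115 CPM, 2.32-fold lower in KO (1.86 to 2.91). With doublets kept its log2 ratio was -0.99, just under 2-fold. Ms4a6c stood at 836 and 691 CPM, Ms4a6b at 424 and 273 (higher in KO after thinning, log2 0.11), Ms4a4c at 287 and 203, and Ms4a8a at 94.97 and 91.1. Ms4a4a was higher in KO, at 57.7 and 91.8 CPM, a ratio of 1.59 (1.09 to 2.39). Of the 10 markers of nonclassical monocytes, the class with the highest Ms4a4a level, 4 were at least 2-fold higher in these KO cells and 0 lower, with Ace at 42.4 and 207 CPM. They summed to 1440 and 1522 CPM, with Fabp4 at 0 in WT, and their part in the Ms4a4a ratio was not tested.

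Of 9 members tested in macrophage-like cells, 1 was at least 2-fold lower (Ms4a6d), against 6.53% of 8419 genes, and 1 was at least 2-fold higher (Ms4a1, 5 WT and 31 KO UMIs), against 4.93%. The B markers summed to 295 CPM in WT and 594 in KO there. Of the 9 that passed the minimum, 4 were at least 2-fold higher and 0 lower, and 2 of 13 were at 0 in WT. Their part in the Ms4a1 ratio was not tested. The class itself was not alike in the libraries. Of its 13 markers, 8 were at least 2-fold lower in KO and 0 higher, and the 13 summed to 11910 CPM in WT and 6357 in KO. Among the 8 were Cd5l (834 CPM in WT and 101 in KO), Vsig4 (163 and 8.28) and Clec4f (293 and 13.8). Timd4 (74.6 and 1.38) and Marco (298 and 2.76) were also among them, while C1qb stood at 1631 and 1137 CPM. The part of that difference in the values of the MS4A genes was not tested. After thinning, 20.5% of WT and 10.98% of KO cells had a Ms4a6d UMI, with overlapping intervals (13.5 to 29.2 and 7.42 to 15.5).

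Over the 6 classes, 7 pairs of a member and a class were at least 2-fold lower in KO and 5 at least 2-fold higher, of 45 pairs tested. By class, 3.24% to 11.1% of all genes were lower and 1.97% to 6.49% higher. All 5 higher pairs lay at levels of 21.4 CPM or less in both libraries. The 7 lower pairs were the 4 of nonclassical monocyte-like cells, Ms4a6d of macrophage-like cells, and Ms4a4c and Ms4a6d of NK-ILC1-like cells.

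Counted over the 23 clusters with at least 50 cells in each library, each member was compared where it had 20 or more summed UMIs. Ms4a4c had 20 or more summed UMIs in 21 clusters, and its interval lay below equality in 11 and above it in 1. Ms4a6d lay below in 4 of 9 and above in 0. Ms4a6b lay below in 7 of 22 and above in 2, Ms4a4b below in 7 and above in 7 of 22, and Ms4a6c below in 7 and above in 6 of 21. Ms4a1 lay below in 0 and above in 5 of 7, Ms4a4a below in 1 and above in 3 of 5, Ms4a8a below in 1 and above in 1 of 6, and Ms4a7 below in 0 and above in 0 of 3. No share over all genes was computed for these clusters. The clusters share libraries and depth, so these counts describe 2 libraries and are not independent.

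**Figure D4:**
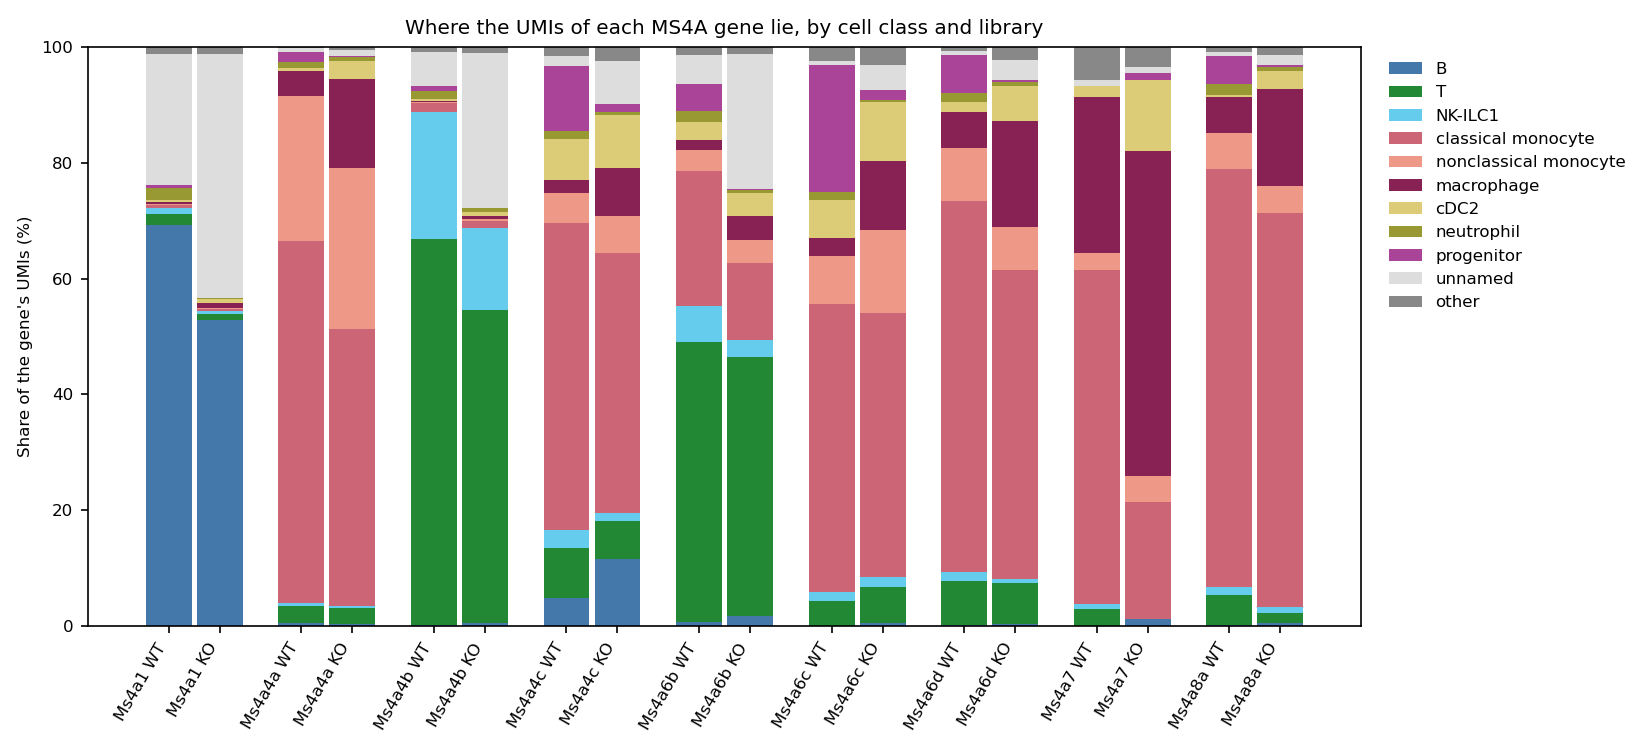
Share of the UMIs of each MS4A gene by cell class, WT and KO side by side for each gene. The vertical axis is the percent of the gene's UMIs over all kept cells, and colours are cell classes. For Ms4a7 the share in macrophage-like cells was 26.9% in WT and 56.2% in KO, and for Ms4a1 the grey share of unnamed clusters was 22.7% and 42.1%.

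Where a gene's UMIs lie depends on its level and on how many cells of each class a library holds. Ms4a7 had 57.7% of its WT UMIs in classical monocyte-like cells and 26.9% in macrophage-like cells, against 20.2% and 56.2% in KO, on 104 and 89 UMIs in all. Macrophage-like cells were 0.685% of WT and 1.68% of KO cells. Ms4a4a had 62.5% of its WT and 47.9% of its KO UMIs in classical monocyte-like cells, although its CPM was highest in nonclassical cells. That lead was 2.02-fold in WT and 1.05-fold in KO. Ms4a6c had 22.0% of its WT UMIs in progenitor-like cells, the precursors with Mpo and Elane, where it stood at 766 CPM in WT and 753 in the 22 KO cells. Dendritic cells of type 2 (cDC2-like) also read Ms4a6c, at 594 CPM in WT and 414 in KO, and Ms4a4c, at 315 and 157. Median haemoglobin in this class was 0.656% in WT and 14.8% in KO, and the median log2 ratio over all genes tested there was -0.16.

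By the likeness of levels over 22 class and library sums, the 3 genes most like each member were taken among 11618 genes with at least 200 UMIs. For Ms4a1 they were Pax5 (Pearson r 0.98), Pou2af1 (0.97) and Fcmr (0.97), all genes of B cells. Those of Ms4a4b were Cd247 (0.98), the zeta chain of the T cell receptor complex, Lck (0.97) and Skap1 (0.96). Ms4a7 was most like C1qb (0.95), Mertk (0.94) and C1qa (0.94), and Ms4a8a most like Msr1 (0.94), Vis1 (0.93) and Trem2 (0.93). Ms4a6d was most like Fcgr1 (0.94), Tns4 (0.93) and Cd302 (0.93), Ms4a4a like Gm56663 (0.98), Vis1 (0.96) and Clec4a3 (0.96), and Ms4a6c like Mcub (0.96), Pros1 (0.96) and Ptpro (0.94). Ms4a4c, with Nlrc4 (0.93), Ctsc (0.90) and Adam9 (0.90), and Ms4a6b, with Gm57204 (0.88), Cyria (0.87) and Galnt9 (0.86), had looser neighbours. Between the promoter pairs shown above, r was 0.01 for Ms4a4b with Ms4a4c and 0.73 for Ms4a6b with Ms4a6c. These correlations run over sums that share 2 libraries and their depth, and are descriptions.

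The remaining MS4A genes were below 20 summed UMIs in these classes except for Ms4a3 in T-like cells, and the related genes Tmem176a and Tmem176b made up the other pairs. Of 13 listed genes 12 were among the measured genes. Over the 6 classes, 12 pairs of a gene and a class reached 20 summed UMIs, with 1 lower by 2-fold, 0 higher and a median log2 ratio of 0.11 among those with a UMI in both libraries. The 1 lower pair was Ms4a3 in T-like cells (36 WT and 0 KO UMIs). Progenitor markers summed to 35.6 CPM in WT and 2.95 in KO of these cells, with 5 of the 5 that passed the minimum at least 2-fold lower and 1 of 6, Ctsg, at 0 in KO. Neutrophil markers summed to 3503 and 576 CPM, with 9 of 11 lower, and the part of either list was not tested. Ms4a3, a gene of granulocyte and monocyte precursors, stood at 262 CPM in 456 WT progenitor-like cells and 59.99 CPM in 22 KO cells. Ms4a2, the beta chain of the high-affinity IgE receptor, stood at 801 CPM in 51 WT and 691 CPM in 28 KO basophil- and mast-like cells. Tmem176b was higher in KO macrophage-like cells (281 and 419 CPM, ratio 1.49, 1.25 to 1.78) and T-like cells (36.6 and 59.6 CPM, ratio 1.63, 1.45 to 1.82), and Tmem176a stood at 142 and 246 CPM in macrophage-like cells.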

How the data were processed

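The authors deposited 1 matrix of raw UMI counts per library, made with 10x Genomics 3′ v3.1 chemistry per the labels' protocols. Per the submitters' processing notes, reads were handled with Cell Ranger 6.0.1 on mm39 and with Seurat 4.3.0, while the file headers name Cell Ranger 8.0.1. Barcodes with at least 200 genes and at most 20% mitochondrial UMIs were kept, and simulated-doublet scoring removed 15.3% of WT and 11.6% of KO barcodes (0.8% per 1000 barcodes). Cells were clustered with scanpy 1.11.5 and leidenalg 0.10.2 (2000 variable genes, 30 principal components, 15 neighbours, resolution 1) without the MS4A, Tmem176, antigen receptor, haemoglobin, mitochondrial, ribosomal and sex-linked genes. A class name needed 3 markers at 2-fold over the other cells, each in 10% of cells, and leading genes that did not favour another class. Clusters over 10% median haemoglobin, taken over the cells of both libraries together, stayed unnamed, unless erythroid at 75% or more.

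UMIs were summed per class and library and divided by the class total (CPM). Levels carry exact Poisson intervals, ratios exact conditional binomial intervals and shares exact Clopper-Pearson intervals, all at 95% and for counting error only. A member was called lower or higher at 2-fold with 20 summed UMIs. Shares of cells were compared after thinning to 1000 UMIs (shallower cells left out: 1903 in WT, 2638 in KO). Free RNA was estimated from S100a8 and S100a9 in B-like cells. Alternatives used edgeR 4.0.16 (TMM) and DESeq2 1.42.0 size factors for scaling only. All 9 members are named, with the 3 genes most like each and genes of listed sets. Members and lists were chosen with earlier results of these data known. On simulated Poisson counts, the ratio intervals covered the known value for 95.8% to 96.1% of genes. The intervals assume such counts, so this checks their calculation and not how well that assumption holds in these libraries. RefSeq sequences are of GRCm38.p6, not the build of the files, and were matched by symbol only.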

Additional observations from a re-analysis of the deposited data

Results flagged for a closer look

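Among the 6 classes compared, for 4 members the KO over WT ratio lay below 1 in 1 class and above 1 in another, with both counting intervals leaving out equality. With 1 library per genotype these differences between classes were not tested. Ms4a4a had a ratio of 0.742 in nonclassical monocyte-like cells and 1.98 in T-like cells, where it rests on 23 WT and 24 KO UMIs. Ms4a6b had a ratio of 0.418 in nonclassical monocyte-like cells and 1.12 in T-like cells. Ms4a6c had a ratio of 0.582 in nonclassical monocyte-like cells and 2.42 in B-like cells, the latter on 12 WT and 43 KO UMIs. With free RNA subtracted, 0 of these WT UMIs remained. In Cd8-positive T-like cells its ratio was 3.06 (1.97 to 4.87), on 28 WT and 85 KO UMIs. Cd4-positive cells gave 1.35 (1.05 to 1.71), and the interval held equality in the Zbtb16, Trdc and Foxp3 gates. Ms4a8a had a ratio of 0.389 in nonclassical monocyte-like cells and 1.38 in classical monocyte-like cells.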

How the results depend on the processing

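No paired analysis was possible because each genotype is 1 library. The main counts were 7 lower and 5 higher pairs of a member and a class. Shares over all genes were computed at the main setting only. The member counts at the other settings therefore have no such background and show only how the calls move. In nonclassical monocyte-like cells the 4 lower members became 3 at a minimum of 100 UMIs and 5 at 1.5-fold or after thinning, and stayed 4 elsewhere. Under TMM or DESeq2 scaling, 2 members were higher in T-like and 1 lower in NK-ILC1-like cells. With no minimum, 1 was lower and 3 higher in B-like cells and 1 lower in T-like cells. A minimum of 100 left 0 higher pairs, with 0 higher in the B-like, T-like, NK-ILC1-like, classical monocyte-like and macrophage-like classes and 1 lower in NK-ILC1-like cells. At 1.5-fold there were 16 lower and 8 higher pairs, with 2 lower and 3 higher in T-like, 4 lower in classical monocyte-like, and 3 lower and 2 higher in macrophage-like cells. With 500 genes and 10% mitochondrial UMIs, 2 were higher in T-like and 1 lower in classical monocyte-like cells. With doublets kept, 3 pairs were higher, 0 in B-like and 0 in macrophage-like cells, with 1 lower in NK-ILC1-like and 0 lower in macrophage-like cells. Without cells over 10% haemoglobin, 0 were higher in B-like, 2 in T-like, 2 in NK-ILC1-like and 0 in classical monocyte-like cells, and 1 was lower in NK-ILC1-like cells. After thinning 3 pairs were higher, 0 of them in NK-ILC1-like and 0 in classical monocyte-like cells, with 1 lower in NK-ILC1-like and 2 in macrophage-like cells. With free RNA subtracted 3 pairs were higher, 0 in NK-ILC1-like and 0 in classical monocyte-like cells, and 1 was lower in T-like cells. At resolution 2, 2 were higher in T-like, 0 higher in classical monocyte-like and 1 lower in NK-ILC1-like cells. The log2 ratio of Ms4a4b in NK-ILC1-like cells changed sign to 0.089 (TMM), 0.10 (DESeq2) and 0.16 (without cells over 10% haemoglobin). After thinning, that of Ms4a7 in classical monocyte-like cells became 1.08 and that of Ms4a6b in macrophage-like cells 0.11. In the former only 4 WT and 5 KO thinned cells held a Ms4a7 UMI. The cause of these changes of sign was not tested. The setting with clusters 12 and 27 added to T-like and B-like cells was chosen after seeing the data.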
